A study of Homo sapiens with 6 samples.

Results

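The immediate early transcription factors described here are the products of FOS, FOSB, FOSL1, FOSL2, JUN, JUNB, JUND, EGR1, IER2 and MYC. They were taken as the probe sets whose deposited annotation gave only 1 of these 10 symbols, which left 22 of the 54613 probe sets tested, and no further probe set held a member among several symbols. JUN and JUND had 4 probe sets each, FOSL2 had 5, EGR1 had 3, and the other members had 1 each. Messenger RNA was measured in Huh7, an established line of human liver cancer cells, on Affymetrix U133 Plus 2.0 arrays, where a probe set is a group of short oligonucleotides against 1 transcript or several. All cells grew for 24 h in DMEM with 10% FBS. The control group received vehicle, the nLDL group native low-density lipoprotein at 120 µg/ml to load the cells with cholesterol, and the statin group 5 µM of a statin, an inhibitor of cholesterol synthesis. Each group had 2 arrays, described as biological replicates, and their small number limits the precision of every value. All cells came from 1 line and 1 time point, and because RNA was bulk, a change in the share of expressing cells and a change in RNA per cell cannot be told apart.

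Immediate early genes are switched on within minutes of a growth factor, stress or adhesion signal without new protein synthesis, and their short-lived messengers usually decline within hours. Proteins of the FOS and JUN families pair through leucine zippers to form AP-1, which binds the TGA-TCA type of site, whereas EGR1 binds GC-rich DNA through zinc fingers and MYC binds E-boxes together with MAX. Several are known in liver for their part in regeneration and in liver cancer. Samples here were taken once, long after such an early burst, and neither protein nor phosphorylation was measured.

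The 9 hepatocyte markers had mean log2 signals between 11.06 and 14.26, and none passed in limma in any comparison, although 2 did with statin under a trended and robust prior. The 13 markers of other cell types lay between 3.63 and 6.96, with a log2 summed signal of 9.18 to 9.28 on control arrays, 9.25 to 9.26 on nLDL arrays and 9.22 to 9.31 on statin arrays, and 1 of them fell with statin (KRT19, by 0.85, limma adjusted p = 0.0062). The excess of 3′ over 5′ signal at the ACTB quality control probe sets was larger on the statin arrays (2.13 and 1.92 log2 units) than on the control (1.63 and 1.64) and nLDL arrays (1.62 and 1.54), whereas that of GAPDH was 0.02 to 0.10 on all 6 arrays. The part of this 3′ excess in the statin differences was not tested.

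Differences below are in log2 units with the SE of a limma fit to all 6 arrays, and a probe set passes where its p is under 0.05 after Benjamini-Hochberg adjustment across the 54613. With statin, 7 of the 22 member probe sets rose against control and 0 fell, where 0.956% of all probe sets rose and 1.66% fell. These 7 were the 4 probe sets of JUN, 2 of the 3 of EGR1 and the 1 of MYC. At an unadjusted p under 0.05 there were 15 of the 22, where 18.8% of all probe sets reached it. The median difference over the 22 was 0.40, against 0.02 over all probe sets, and both statin arrays lay above both control arrays at 18 of the 22, which held for 26.4% of all probe sets, and below them at 1 (23.6% of all). Counted by gene at the brightest probe set, 3 of the 10 members rose, where 1.49% of 21299 genes did. No member passed in the comparison of nLDL with control, and 8 of the 22 were higher with statin than with nLDL.

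**Figure D1:**
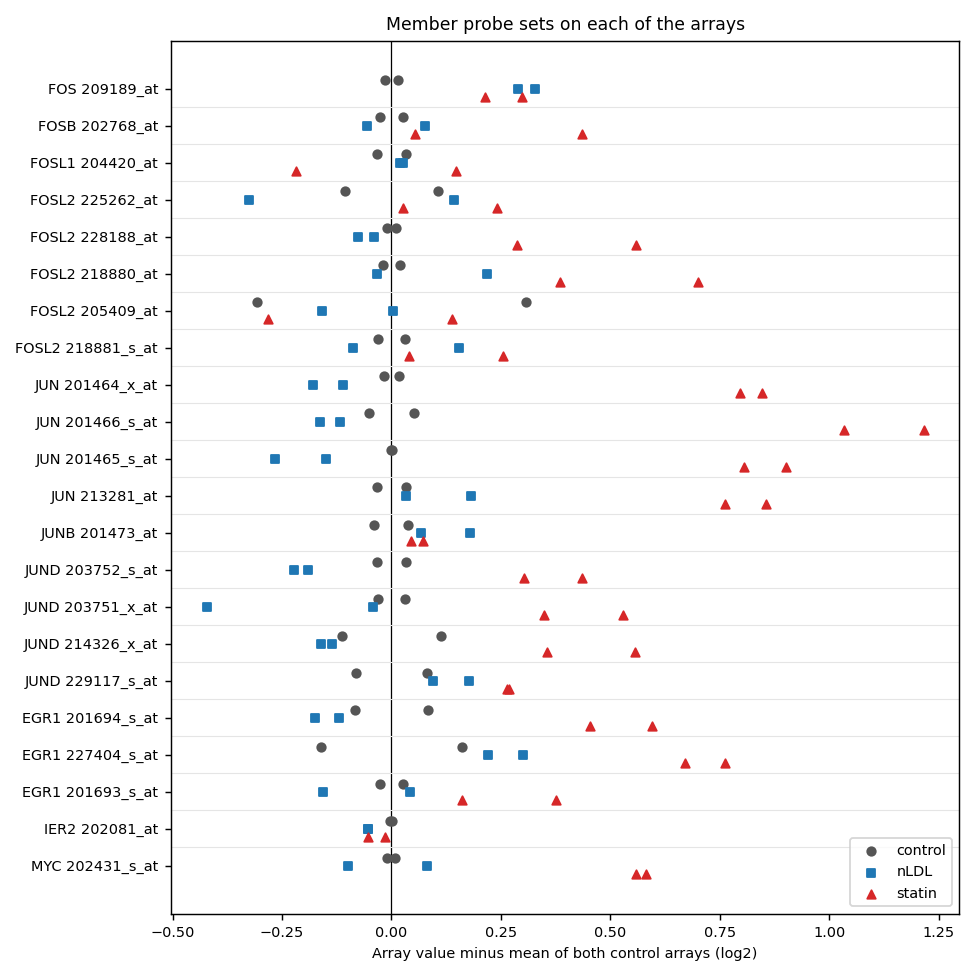
Each row is 1 of the 22 member probe sets, and each mark is 1 array (grey circles control, blue squares nLDL, red triangles statin), placed by its log2 value minus the mean of both control arrays of that probe set. The statin marks of all 4 JUN probe sets lie right of 0.75, those of MYC near 0.57, and those of IER2 and JUNB lie within 0.10 of the control mean.

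JUN, the core AP-1 subunit that can pair with itself or with FOS proteins, had the largest statin difference of the members. Probe set 201466_s_at read 8.14 and 8.03 on the control arrays, 7.92 and 7.97 with nLDL, and 9.12 and 9.30 with statin. Both statin arrays stood apart from the other 4. Its difference from control was 1.13 (SE 0.09, limma adjusted p = 0.00489), a 2.18-fold rise that ranked 58 among all probe sets by p. The brightest probe set, 201464_x_at, read 10.75 and 10.72 in control, 10.56 and 10.63 with nLDL, and 11.53 and 11.58 with statin, so that the statin arrays again lay above the rest. It rose 1.77-fold (0.82, SE 0.08, limma adjusted p = 0.00662). Probe set 201465_s_at read 8.19 on both control arrays, 8.04 and 7.92 with nLDL, and 9.00 and 9.09 with statin. It rose by 0.85 (SE 0.08, limma adjusted p = 0.00756). The dimmest of the 4, 213281_at, read 6.35 and 6.28, then 6.50 and 6.35, then 7.08 and 7.17, a rise of 0.81 (SE 0.09, limma adjusted p = 0.0101). The 4 probe sets share a gene and are not replicates of the condition. Of these, 201464_x_at is of a type whose probes can match transcripts of other genes.

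In every fit that left out 1 array the JUN differences stayed between 0.76 and 1.22, but calls were lost. Without control replicate 1 or control replicate 2 none of the 4 passed, with adjusted p of up to 0.0634 for 201466_s_at and 0.112 for 213281_at. Without statin replicate 1 only 201466_s_at passed, and without statin replicate 2 only 201466_s_at and 201464_x_at did. All 4 passed without either nLDL array.

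JUND, a JUN protein that most cells express without stimulation, was higher with statin than in control at 4 of 4 probe sets, and none of them passed. Its brightest probe set, 203752_s_at, read 11.41 and 11.47 in control, 11.22 and 11.25 with nLDL, and 11.74 and 11.87 with statin, and no group overlapped another. The statin difference was 0.37 (SE 0.08, limma adjusted p = 0.0732), with a 95% interval of 0.17 to 0.57. The next, 203751_x_at and 214326_x_at, differed by 0.44 and 0.46 (limma adjusted p = 0.147 and 0.085). Probe set 203752_s_at passed when the dimmest 40% of probe sets were left out (limma adjusted p = 0.0347), and with 214326_x_at under a trended and robust prior. The dimmest, 229117_s_at, which lies in the dimmest 40% of probe sets, differed by 0.27. When the probe sets of each gene were averaged before the fit, which leaves fewer tests, JUND passed as well (0.38, limma adjusted p = 0.0176), beside JUN (0.90), MYC (0.57) and EGR1 (0.50), so that 4 of the 10 genes rose. Probes of the _x_at type can match transcripts of other genes, and the sources used here do not separate them.

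JUNB, the third JUN protein and a weaker activator than JUN at many AP-1 sites, read 6.82 and 6.74 in control, 6.96 and 6.85 with nLDL, and 6.83 and 6.86 with statin. All 6 arrays lay between 6.74 and 6.96. Its statin difference of 0.06 had a 95% interval of -0.13 to 0.25, and did not pass (limma adjusted p = 0.749).

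**Figure D2:**
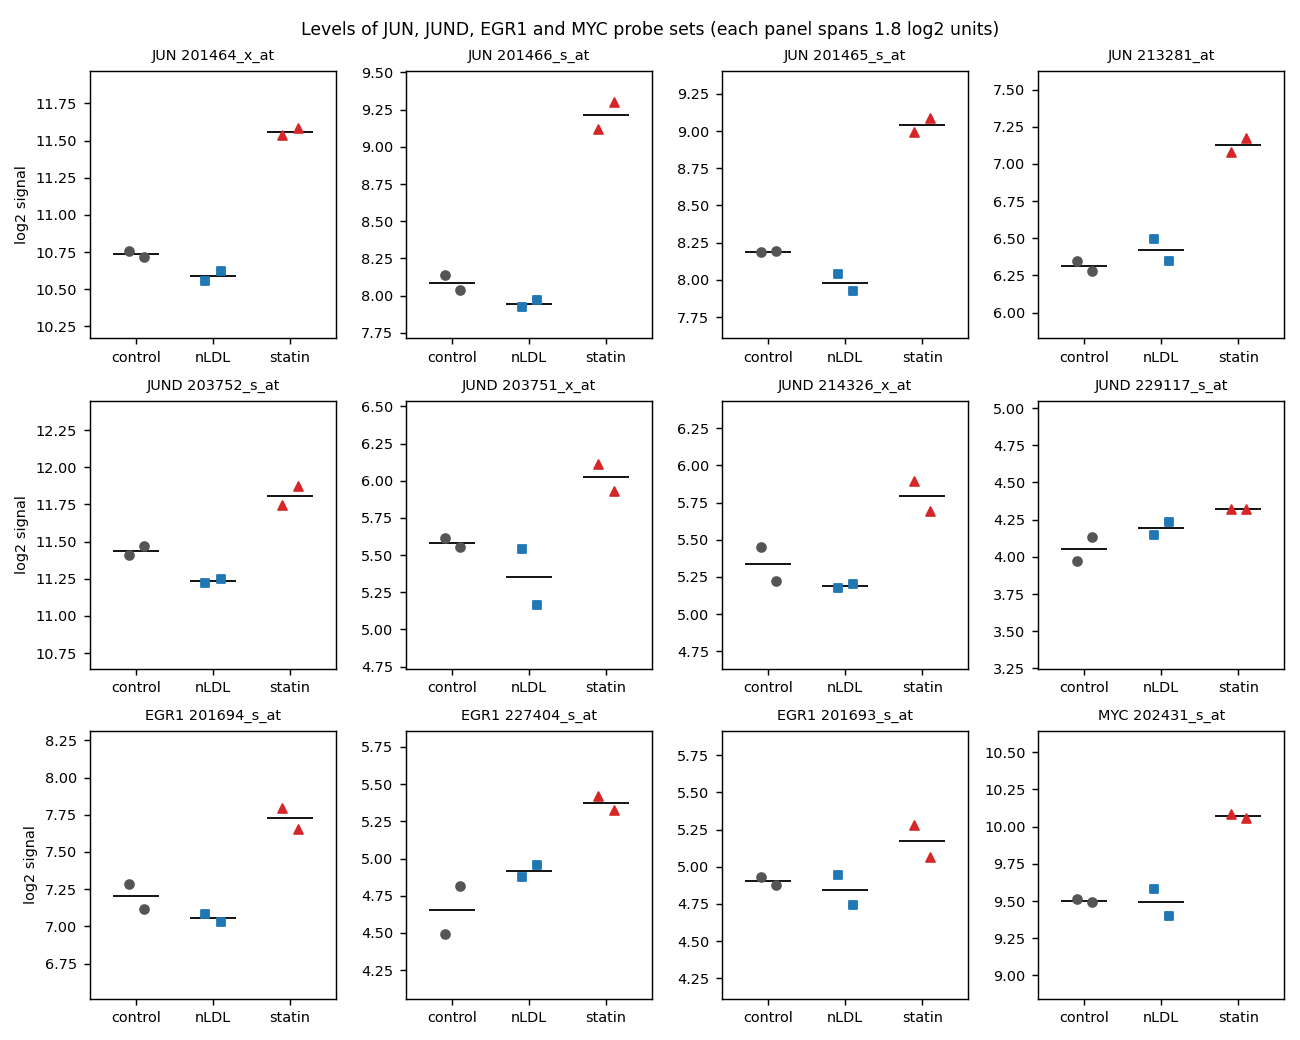
Log2 signal of the probe sets of JUN, JUND, EGR1 and MYC on each of the 6 arrays (symbols) with the group means (lines), in panels that each span the same number of log2 units. The statin arrays are the highest in all 12 panels. Among all probe sets, both statin arrays lay above both controls at 26.4% and above both nLDL arrays at 23.4%. The share above both groups at once is not given here. The nLDL arrays lie below the controls for 3 of 4 JUN probe sets, where 18.2% of all probe sets did so.

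The FOS family, which pairs with JUN proteins and cannot form stable dimers alone, gave 0 calls over 8 probe sets in limma. With statin, 1 of FOS and 2 of FOSL2 had an unadjusted p under 0.05, which 18.8% of all probe sets reached. FOS read 3.98 and 3.95 in control, 4.25 and 4.29 with nLDL, and 4.18 and 4.26 with statin. It was higher in both treated groups, by 0.31 with nLDL and 0.26 with statin, at a level in the dimmest 40% of probe sets, and neither passed (limma adjusted p = 0.798 and 0.143). FOSB lay at 3.82 and 3.77 in control, 3.74 and 3.87 with nLDL, and 4.23 and 3.85 with statin. Only statin replicate 1 stood clear of the other arrays, and the difference of 0.24 did not pass (limma adjusted p = 0.369). FOSL1, which lacks the strong activation domain of FOS, read 4.58 and 4.65, then 4.64 on both nLDL arrays, then 4.76 and 4.40, and the 2 statin arrays lay on either side of the controls.

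FOSL2, a relative of FOSL1, differed between its own probe sets. With statin, 218880_at read 5.22 and 4.90 against 4.54 and 4.50 in control, a difference of 0.54 (SE 0.13, limma adjusted p = 0.0849). Probe set 228188_at read 5.80 and 6.07 against 5.50 and 5.52, a difference of 0.42 (SE 0.10, limma adjusted p = 0.0897). At both probe sets the statin arrays lay above all other arrays. Neither passed here, and both passed under a trended and robust prior (limma adjusted p = 0.027 and 0.0446). The brightest, 225262_at, overlapped the controls (6.06 and 6.27 against 6.14 and 5.93), and 205409_at ranged from 4.34 to 4.95 within the control group alone. The fifth, 218881_s_at, differed by 0.15 at a level in the dimmest 40%.

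EGR1, a zinc-finger factor that growth factors and stress induce through serum response factor, rose at 2 of its 3 probe sets. The brightest, 201694_s_at, read 7.29 and 7.12 in control, 7.08 and 7.03 with nLDL, and 7.80 and 7.66 with statin. It rose 1.44-fold (0.52, SE 0.09, limma adjusted p = 0.0402). Probe set 227404_s_at read 4.49 and 4.82, then 4.88 and 4.96, then 5.42 and 5.33, and rose by 0.72 (SE 0.12, limma adjusted p = 0.0306). At 201693_s_at the statin arrays read 5.28 and 5.06 against 4.93 and 4.88 in control, and the difference of 0.27 did not pass (limma adjusted p = 0.244). In all 3 the statin arrays were above all others. Among all probe sets, both statin arrays lay above both controls at 26.4% and above both nLDL arrays at 23.4%. Both EGR1 calls were lost in each of the 6 fits that left out 1 array, with differences of 0.44 to 0.61 at 201694_s_at (adjusted p = 0.0793 to 0.235) and of 0.56 to 0.88 at 227404_s_at (adjusted p = 0.0694 to 0.163).

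MYC, which drives growth and ribosome production, read 9.51 and 9.49 in control, 9.58 and 9.40 with nLDL, and 10.08 and 10.06 with statin. The statin arrays lay above the others and close together. It rose 1.48-fold (0.57, SE 0.09, limma adjusted p = 0.0267). Without control replicate 1, control replicate 2, statin replicate 1 or statin replicate 2 the call was lost, with adjusted p of up to 0.184 and differences of 0.56 to 0.58.

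IER2, a nuclear protein of the growth factor response, read 10.03 on both control arrays, 9.97 on both nLDL arrays, and 9.97 and 10.01 with statin. Its difference of -0.03 (SE 0.07, limma adjusted p = 0.846) had a 95% interval of -0.21 to 0.14. All 6 arrays lay between 9.97 and 10.03.

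**Figure D3:**
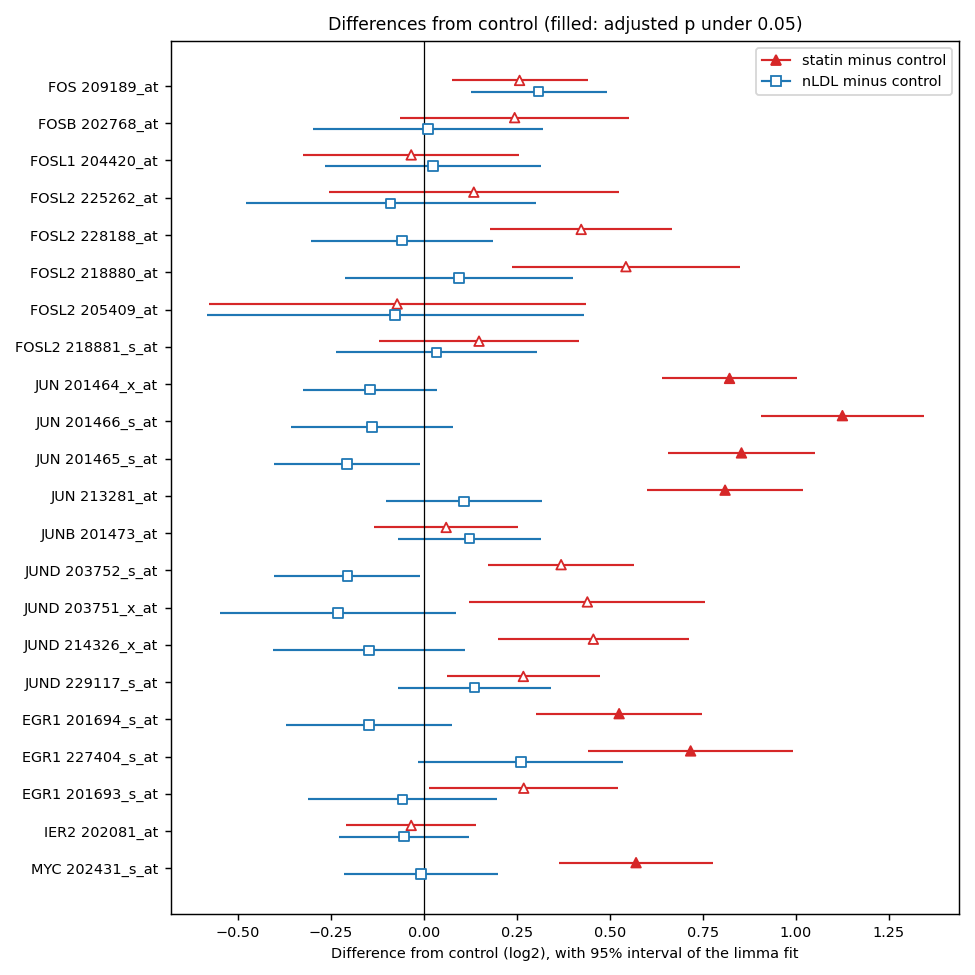
Difference from control on the log2 scale for each member probe set, with the 95% interval of the limma fit, for statin (red triangles) and nLDL (blue squares). Filled symbols mark an adjusted p under 0.05, and these are the 7 statin differences of JUN, EGR1 and MYC, whereas no nLDL symbol is filled.

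Promoter sequence is shown for the 2 members that rose at more than 1 probe set, JUN and EGR1, and for JUND, which passed against nLDL. The windows are the 250 bases before the RefSeq start site of each gene on GRCh38.p14, written 5′ to 3′ on the gene's own strand: chr1:58784048-58784297 (minus strand) for JUN, chr19:18281623-18281872 (minus strand) for JUND and chr5:138465229-138465478 (plus strand) for EGR1. Capitals mark matches to the motifs searched.
JUN: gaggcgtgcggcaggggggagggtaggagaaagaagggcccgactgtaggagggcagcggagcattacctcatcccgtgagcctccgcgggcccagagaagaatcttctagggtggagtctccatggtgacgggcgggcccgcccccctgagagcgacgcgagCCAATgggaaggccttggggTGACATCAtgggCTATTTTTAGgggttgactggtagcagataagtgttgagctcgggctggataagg
JUND: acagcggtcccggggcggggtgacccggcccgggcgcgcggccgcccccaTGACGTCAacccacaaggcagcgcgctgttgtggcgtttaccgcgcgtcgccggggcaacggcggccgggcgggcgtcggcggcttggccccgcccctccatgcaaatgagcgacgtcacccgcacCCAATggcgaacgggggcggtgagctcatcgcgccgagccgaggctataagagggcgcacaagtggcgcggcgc
EGR1: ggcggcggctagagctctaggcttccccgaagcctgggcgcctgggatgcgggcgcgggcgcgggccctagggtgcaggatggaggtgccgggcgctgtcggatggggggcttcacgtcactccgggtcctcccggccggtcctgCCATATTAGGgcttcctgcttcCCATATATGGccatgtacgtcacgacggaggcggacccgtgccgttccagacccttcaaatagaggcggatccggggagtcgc
In JUN the capitals are a CCAAT box, the AP-1-like site TGACATCA at bases 67 to 60 before the start, and a MEF2 site at bases 55 to 46. In JUND they are the cAMP response element TGACGTCA at bases 200 to 193 and a CCAAT box. In EGR1 they are 2 CArG boxes, CCATATTAGG at bases 105 to 96 and CCATATATGG at bases 83 to 74, the kind of sequence that serum response factor binds.

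Of 35116 promoter windows of this length, 2.37% held TGACATCA, 0.134% held the MEF2 site, 1.65% held TGACGTCA, 1.16% held a CArG box and 32.0% held CCAAT, each searched on both strands. The other 3 motifs searched were TGANTCA (both strands, 6.57% of windows), the E-box CACGTG (both strands, 6.34%) and TATAAA (given strand, 6.8%). No match overlapped another within the printed windows. Windows of 8 of the 10 members were searched, without FOSL1 and MYC. TATAAA was found in FOS at bases 33 to 28, in FOSB at bases 30 to 25 and in JUNB at bases 31 to 26, CCAAT also in JUNB, and none of the 8 motifs in FOSL2 or IER2. These matches describe the letters of the window, and no binding was measured.

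The nLDL comparison asked whether loading the cells with cholesterol moved the same genes. No member probe set passed (0 of 22, limma), and neither did any of the 54613 (0%). At an unadjusted p under 0.05 there were 3 of 22, where 6.15% of all probe sets reached it, and the t-test that the methods name, with a fold of at least 1.1, called 2 (3.63% of all). The 3 were FOS, higher by 0.31, and JUN 201465_s_at and JUND 203752_s_at, each lower by 0.21. The lowest adjusted p was 0.798. The median over the 22 was -0.06, both nLDL arrays lay below both controls at 9 of 22 and above them at 4, where 18.2% and 17.8% of all probe sets did so. For MYC the 95% interval of the nLDL difference was -0.22 to 0.20. For EGR1 it was -0.37 to 0.07 at 201694_s_at, -0.02 to 0.54 at 227404_s_at and -0.31 to 0.20 at 201693_s_at.

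Statin and nLDL were also compared directly, and 8 of the 22 probe sets were higher with statin and 0 lower, where 1.04% of all probe sets were higher and 1.41% lower. Both statin arrays lay above both nLDL arrays at 14 of the 22 and below them at 0, against 23.4% and 21.8% of all probe sets. The 8 that passed were all 4 of JUN, 2 of JUND and 1 each of EGR1 and MYC, with a median difference over the 22 of 0.45 against 0.01 over all. JUN 201466_s_at differed by 1.27 and 201465_s_at by 1.06, a fold of 2.40 and 2.09 (limma adjusted p = 0.00325 and 0.00355). JUND 203752_s_at was higher by 0.57 (SE 0.08, limma adjusted p = 0.0216) and 214326_x_at by 0.60 (limma adjusted p = 0.0414). MYC differed by 0.58 and EGR1 201694_s_at by 0.67 (limma adjusted p = 0.0242 and 0.0198). This comparison shares the statin arrays with that against control, so their calls are not separate evidence.

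Leaving out single arrays changed these calls too. JUN 201465_s_at passed in all 6 such fits. JUN 201464_x_at and 201466_s_at passed in 5 of 6 and missed without nLDL replicate 1 (adjusted p = 0.0536 and 0.0504). JUN 213281_at and EGR1 201694_s_at passed only in the 2 fits without a control array, with adjusted p of up to 0.0942 and 0.126. Both JUND calls and the MYC call were lost in all 6, with adjusted p of up to 0.214 for JUND and 0.135 for MYC, at differences of 0.50 to 0.70 and 0.49 to 0.67.

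By group level, JUN at 201464_x_at, JUND at 203752_s_at and EGR1 at 201694_s_at ran from nLDL (10.59, 11.23 and 7.06) through control (10.74, 11.44 and 7.20) to statin (11.56, 11.81 and 7.73). JUN 213281_at, JUND 229117_s_at and EGR1 227404_s_at instead ran from control (6.32, 4.05 and 4.66) through nLDL (6.42, 4.19 and 4.92) to statin (7.13, 4.32 and 5.37). The other probe sets of these genes ran from nLDL through control to statin. For MYC the nLDL and control means were 9.49 and 9.50, below the statin mean of 10.07. Between nLDL and control no probe set passed. Between control and statin no JUND probe set passed, nor did EGR1 201693_s_at (limma adjusted p = 0.244). Between nLDL and statin JUN 213281_at passed (limma adjusted p = 0.0143). EGR1 227404_s_at and JUND 229117_s_at did not pass there (limma adjusted p = 0.11 and 0.52).

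Other genes of these pathways were read from 10 lists, each gene by its brightest probe set, where 3.75% of all genes passed with statin, 1.49% rose and 2.26% fell, and the median over all genes was 0.02. No gene of any list passed with nLDL in limma, and at an unadjusted p under 0.05 there were 0 to 3 genes a list. Among all probe sets 18.8% reached that p with statin and 6.15% with nLDL, and the share by gene is not given here. The members' own median by gene was 0.25.

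Among 12 FOS and JUN partners, 0 rose and 2 fell with statin. JDP2, a repressor of AP-1 sites, read 7.07 and 7.25 in control, 7.10 and 7.03 with nLDL, and 5.95 and 6.15 with statin, so that the statin arrays lay below all others. It fell by 1.11 (SE 0.10, limma adjusted p = 0.0062). BATF, an AP-1 protein without an activation domain of its own, fell by 0.69 (SE 0.13, limma adjusted p = 0.0444). Without control replicate 1, control replicate 2 or statin replicate 1 the JDP2 call was lost (adjusted p of up to 0.0691), and the BATF call was lost in all 6 fits without 1 array (adjusted p of up to 0.217). The other 10 partners, such as ATF2 (-0.07) and ATF3 (0.24), did not pass, and the list's median was 3.25e-05.

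Of 24 other immediate early genes, 7 rose and 4 fell with statin, with a median of 0.16. The largest were CCN2 and CCN1, matricellular proteins induced through serum response factor and YAP, which fell (-2.28 and -2.11), and KLF2 and RHOB, a transcription factor and a small GTPase, which rose by 1.29 and 1.27 (limma adjusted p between 0.00186 and 0.00489). CCN2, KLF2 and RHOB passed in all 6 fits without 1 array, and CCN1 missed without control replicate 1 or 2 (adjusted p of up to 0.0614). The other calls, named after their values were seen, were rises of BTG2 (0.92), KLF4 (0.76), KLF6 (0.70), NR4A2 (0.65) and ZFP36 (0.65) and falls of SGK1 (-0.91) and PLK2 (-0.70). The calls of this list thus went in both directions. Those of the 10 members were all rises, but by gene they were only 3, too few for a contrast. Over the fits without 1 array between 3 and 10 of the 24 passed, against 11 with all arrays.

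Signalling genes upstream of the members gave 0 calls in the limma fit, a count that other settings changed. None of 24 kinases and GTPases passed, with a median of -0.03, and 6 had an unadjusted p under 0.05, where 18.8% of all probe sets did. Under a trended and robust prior and by the methods' unadjusted t-test 4 passed. Without the dimmest 40% of probe sets or with the mean over probe sets 1 did. The share of all genes called under these settings is not given here. The largest difference was that of RHOC, a small GTPase (0.35, SE 0.08, limma adjusted p = 0.0813), which passed under that prior and without the dimmest probe sets (limma adjusted p = 0.000563 and 0.0388). None of 10 cofactors of serum response factor and CREB proteins passed, with a median of -0.11 and 1 at an unadjusted p under 0.05, and ELK3, an ETS-domain cofactor, had the largest difference (-0.31, limma adjusted p = 0.314). EGFR, a growth factor receptor, differed by 0.07. These are RNA levels, and the activity of the kinases and GTPases was not measured.

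EGR relatives and co-repressors gave 0 calls of 6 in limma, 0 at an unadjusted p under 0.05 and a median of -0.02, with NAB2, a co-repressor of EGR1, at 0.16 (limma adjusted p = 0.521). Of 10 EGR1 target genes 9 were measured and 0 passed, with a median of -0.10 and 2 at an unadjusted p under 0.05. ICAM1, an adhesion molecule, had the largest difference of these (-0.24, limma adjusted p = 0.21), and passed under a trended and robust prior (limma adjusted p = 0.0234).

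AP-1 target genes moved both ways. Of 20, 1 rose and 2 fell, and the median was 0.0012. SPP1, which encodes osteopontin, fell by 1.35 (SE 0.16, limma adjusted p = 0.0142), and CXCL8, a neutrophil chemokine, by 1.01 (SE 0.09, limma adjusted p = 0.00516). The call of CXCL8 was lost without control replicate 1 or 2, and that of SPP1 without control replicate 1, control replicate 2 or statin replicate 1 (adjusted p of up to 0.0634 and 0.117).

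Among 22 MYC target genes, largely of ribosome production and metabolism, 0 rose, 1 fell and 18 had a negative difference, with a median of -0.18. Under a trended and robust prior 6 passed, and the share of all genes under that prior is not given here. CAD, an enzyme of pyrimidine synthesis, was the 1 that fell (-0.41, SE 0.08, limma adjusted p = 0.0481), and its call was lost in all 6 fits without 1 array (adjusted p of up to 0.241). NCL, NPM1 and ODC1 differed by -0.18, -0.01 and -0.11. Of 12 MYC partners and antagonists, with a median of 0.20, MXD4, which competes with MYC for MAX, rose by 0.51 (SE 0.08, limma adjusted p = 0.0307), and MYCN, a MYC relative, fell by 0.78 (SE 0.08, limma adjusted p = 0.00881). MAX itself differed by -0.01. Averaged over its probe sets MYCN differed by -0.14 and did not pass (limma adjusted p = 0.204). The MXD4 call was lost in all 6 fits without 1 array, and that of MYCN without either control array or either statin array (adjusted p of up to 0.206 and 0.0933).

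Genes that control messenger and protein stability were read because these messengers and proteins are short-lived. ZFP36, which binds AU-rich messengers and speeds their decay, and which is also counted among the other immediate early genes, rose by 0.65 (SE 0.08, limma adjusted p = 0.0143). It was the 1 call of 10, the other 9 had negative differences, and the median was -0.14. The ZFP36 call was lost without either control array or either statin array (adjusted p of up to 0.142).

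**Figure D4:**
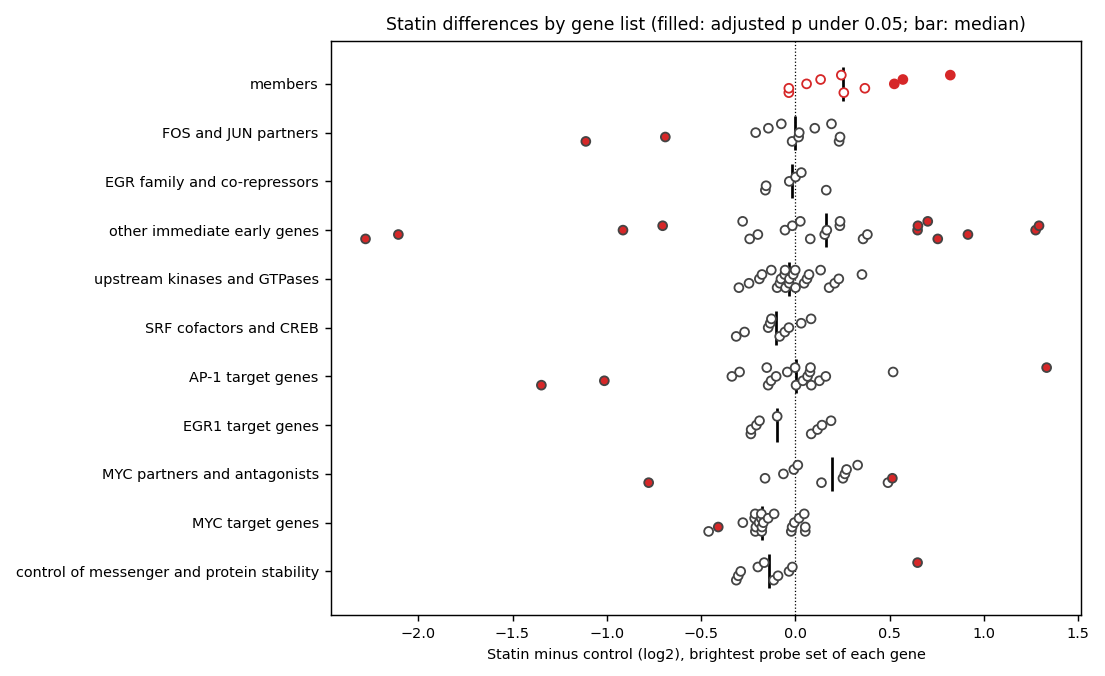
Statin minus control on the log2 scale, 1 brightest probe set a gene, for the 10 members (red, top row) and the genes of each list (one circle each), with the median as a bar and filled circles for an adjusted p under 0.05. The called members lie right of 0. The calls among other immediate early genes, AP-1 targets and MYC partners lie on both sides. The lists of kinases, EGR relatives, EGR1 targets, and cofactors of serum response factor and CREB hold no filled circle.

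The genes whose pattern was most like that of a member were found by Euclidean distance over the 6 arrays between log2 values, each minus the mean of both controls, among 15278 genes outside the dimmest 40%. For JUN they were ISG20, SLC51B and NR0B2, at distances of 0.125, 0.13 and 0.137 against a median of 1.19. ISG20 read 8.78 and 8.68 in control, 8.54 and 8.55 with nLDL, and 9.61 and 9.59 with statin. For MYC they were MICALL2, PRSS3P1 and EPS8L3 (0.106, 0.106 and 0.115, median 0.838), and for EGR1 they were HOXD1, MICAL1 and TRIM47 (0.184, 0.186 and 0.188, median 0.812). TRIM47 did not pass with statin (limma adjusted p = 0.086), but did under a trended and robust prior (limma adjusted p = 0.0142). Averaged over its probe sets MICALL2 differed by 0.21 and did not pass (limma adjusted p = 0.206). With the replicate number as a block PRSS3P1, HOXD1 and MICAL1 did not pass (limma adjusted p = 0.0646, 0.0561 and 0.0571). The distances describe 6 arrays and carry no test.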

How the data were processed

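Total RNA of 6 cultures was hybridised by the authors to Affymetrix arrays and normalised in GeneSpring GX 11.5 per the labels, and the deposited values are log2 signals per probe set after RMA (robust multi-array averaging). No aligner or genome build enters them. A second deposited table gave the annotation. Its 6 value columns match no sample label and were not used. Without 62 control probe sets, 54613 entered the tests, of which 43383 had 1 symbol, 1663 several and 9567 none.

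Groups came from the treatment labels. A model of 3 group means was fitted to all 6 arrays with limma 3.58.1 (lmFit and eBayes, two-sided) in R 4.3.3, with 3 residual and 4.08 prior degrees of freedom, and p-values were adjusted over all probe sets (Benjamini-Hochberg, threshold 0.05). With 2 arrays against 2, exact permutation cannot go below p = 0.333 and was left out. The code was tested on simulated arrays. Arrays have no counting depth, and no detection calls were used. The dimmest 40% had a mean under 4.23.

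The members, the lists, their cell type markers and the tests were chosen with earlier results of these data known. The probe set of highest mean stands for a gene. Named genes are the members, up to 4 of each list with the largest differences among those that pass with statin (or the 1 largest), and the 3 genes nearest to each of 3 members. A few other list genes are named after their values were seen, and 1 gene that the rule names is not reported here. Promoter windows came from RefSeq. Same-numbered arrays did not deviate together (r = 0.05, 0.02 and 0.09), so numbers were not taken as pairs. Alternatives were a replicate block, repeated quantile normalisation, median centring, a fit without the dimmest 40%, a trended and robust prior, fits of only the groups compared, the methods' t-test, averaging the probe sets of a gene, and omitting each array in turn.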

Additional observations from a re-analysis of the deposited data

How the results depend on the processing

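With 2 arrays a group, which calls pass depends on single arrays, and signal in the dimmest 40% of probe sets limits FOS, FOSB and 1 probe set each of FOSL2 and JUND. Against the 7 member probe sets that rose with statin, a trended and robust prior gave 11, the methods' t-test after Benjamini-Hochberg 0, and the mean over probe sets 4 genes. Against the 8 that were higher with statin than with nLDL, the compared groups alone gave 5, the adjusted t-test 0 and the mean over probe sets 4 genes. The share of all probe sets or genes called under these settings is not given here. These counts show only how the calls depend on the setting. The methods' t-test without adjustment called 2 with nLDL, where limma called 0. Leaving out 1 array gave 0 to 5 calls for statin against control and 1 to 5 for statin against nLDL, and 0 for nLDL in every case.

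With statin against control the trended and robust prior added JUND 203752_s_at and 214326_x_at and FOSL2 218880_at and 228188_at to the calls, and raised the calls among kinases and GTPases from 0 to 4, AP-1 targets from 3 to 5, EGR1 targets from 0 to 2, cofactors of serum response factor and CREB from 0 to 1, MYC partners from 2 to 5, MYC targets from 1 to 6 and stability genes from 1 to 5. Without the dimmest 40% MYC partners gave 4 and stability genes 3, and after the adjusted t-test every list gave 0. The 3.75% of genes given above belongs to the main fit, and the share under these settings is not given here.

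The replicate block gave 6, 0 and 9 calls for statin against control, nLDL against control and statin against nLDL. Under it EGR1 227404_s_at (adjusted p = 0.0516), MXD4 (adjusted p = 0.0558) and CAD (adjusted p = 0.0736) were lost in limma. With the compared groups alone, both EGR1 calls were lost (adjusted p = 0.0814 and 0.0694 in limma), as were those of BATF (0.0623), MXD4 (0.0673) and CAD (0.092). CAD was also lost with repeated quantile normalisation and with the mean over probe sets (adjusted p = 0.0766 and 0.0674 in limma).

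None of the 15 member differences that passed changed sign under any alternative. Of the 51 that did not pass, 17 did. With repeated quantile normalisation these were IER2 with statin (0.00612), MYC (0.0194) and FOSB (-0.0205) with nLDL, and FOSL2 205409_at between statin and nLDL (-0.0171). With centring they were FOSB (-0.00527) and FOSL2 205409_at (-0.0137) in the same comparisons, and with the mean over probe sets EGR1 with nLDL (0.0182).

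Without 1 array, the statin difference of FOSL1 ran from -0.22 to 0.15, of FOSL2 205409_at from -0.38 to 0.23 and of NAB2 from -0.0128 to 0.34. The nLDL difference ran from -0.16 to 0.042 for EGR1 201693_s_at, from -0.0989 to 0.0822 for MYC, from -0.0565 to 0.0778 for FOSB, from -0.00986 to 0.0575 for FOSL1, from -0.38 to 0.23 for FOSL2 205409_at, from -0.0325 to 0.22 for 218880_at, from -0.0882 to 0.16 for 218881_s_at and from -0.32 to 0.14 for 225262_at. Between statin and nLDL it ran from -6e-04 to 0.0387 for IER2, from -0.24 to 0.12 for FOSL1, from -0.21 to 0.22 for FOSL2 205409_at, from -0.00738 to 0.24 for 218881_s_at and from -0.0103 to 0.46 for 225262_at.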
